A study of Mus musculus with 36 samples.

Results

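The 8 genes described here carry iron into the macrophage, hold it, release it or sense it: Tfrc, Slc11a1, Slc11a2, Slc40a1, Fth1, Ftl1, Aco1 and Ireb2. They were named by a rule that uses no measured value, but with earlier results of these data known. They are 8 of the 49568 gene rows of each deposited count table. All 8 were listed in both tables and passed the low count filter in every model. The RNA came from RAW264.7 cells, an established mouse macrophage line, and was measured by poly(A) RNA-seq in 36 libraries. The question put to these cells was how short HLA-DRβ peptides act on macrophage polarization. One table held the IFNγ series and the other the Il-4 series, with 18 libraries each. In the IFNγ series, 6 libraries were labelled PBS, 6 were labelled with the peptide 65–79*SE and IFNγ, and 6 with the peptide 65–79*PE and IFNγ, and the Il-4 series had the same arms with Il-4. Peptides were used at 100 µg/ml and cytokines at 5 ng/ml, over 72 h. The peptide 65–79*SE carries the shared epitope (QKRAA) of HLA-DRB1*04:01, an allele linked to rheumatoid arthritis, and 65–79*PE carries the protective epitope (DERAA) of HLA-DRB1*04:02. All libraries came from 1 cell line, which lacks the diversity of primary macrophages.

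Macrophages take up iron through the transferrin receptor and by digesting red cells, move it out of endosomes and phagosomes through the metal transporters of the Slc11a family, store it in ferritin shells built of heavy (Fth1) and light (Ftl1) chains, and export it through ferroportin (Slc40a1). The iron regulatory proteins, encoded by Aco1 and Ireb2, bind hairpins called iron-responsive elements when iron is scarce. A hairpin in the 5′ UTR then blocks translation, and hairpins in the 3′ UTR protect the mRNA from decay. In macrophages, interferon is known to lower iron uptake through the transferrin receptor and to raise Slc11a1, which draws metal out of the phagosome. The counts here measure RNA and say nothing of translation or of iron itself.

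The hairpins are shown because they set apart the 4 members in which the pattern searched here was found from the other 4. An element was counted where an unpaired C, a paired stem and the loop CAGTGN (last base not G) followed each other in a UTR of a GENCODE M21 transcript, read on the sense strand and printed as DNA. Capitals mark the loop.
Slc40a1, 5′ UTR: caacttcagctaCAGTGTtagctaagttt
Fth1, 5′ UTR: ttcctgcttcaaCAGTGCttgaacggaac
Ftl1, 5′ UTR: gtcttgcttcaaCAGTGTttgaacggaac
Tfrc, 3′ UTR, the first: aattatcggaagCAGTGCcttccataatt
Tfrc, 3′ UTR, the second: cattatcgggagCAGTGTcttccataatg
Tfrc, 3′ UTR, the third: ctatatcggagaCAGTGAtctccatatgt
Tfrc, 3′ UTR, the fourth: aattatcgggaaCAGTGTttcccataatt

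In GRCm38, the hairpin of Slc40a1 lay at chr1:45925465-45925493 on the minus strand, that of Fth1 at chr19:9982732-9982760 on the plus strand and that of Ftl1 at chr7:45459779-45459807 on the minus strand. The 4 Tfrc hairpins lay at chr16:32631219-32631247, chr16:32631598-32631626, chr16:32631663-32631691 and chr16:32631710-32631738 on the plus strand. Of 21877 genes searched, 23 (0.105%) held the pattern in a 5′ UTR and 100 (0.457%) in a 3′ UTR. No match was found in Slc11a1, Slc11a2, Aco1 or Ireb2, which says only that these letters are not in the UTRs searched. The pattern is strict, and an element with a less regular stem would be missed.

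Replicates 1–3 and replicates 4–6 of each group were named by different schemes in the labels, and the study described independent experiments, so both sets are shown apart throughout. The study calls the replicates biological, and the labels do not say whether those of a set came from separate cultures, so p-values measure only the spread between these libraries. Library totals ran from 20.67 M to 63.16 M counts with IFNγ and its PBS and from 17.05 M to 30.64 M with Il-4 and its PBS. A count of 0 would allow up to 3 counts, at most 0.166 CPM in the first and 0.172 CPM in the second (CPM, counts per 1000000 of the TMM-scaled library total), which covers counting error only. Macrophage markers were high in every library, summing to 3740 to 7600 CPM and to 3210 to 10500 CPM, except Mertk, at 0.417 CPM or less, and the T cell markers Cd3e, Cd3g and Trac summed to 0.0581 CPM or less. Marker sums reached at most 0.294 CPM for B cells, 2.05 for erythroid cells, 0.0581 for epithelial cells, 1.25 for fibroblasts and 2.54 for endothelial cells. The mean log2 CPM of 12 genes known to respond to IFNγ was 6.42 ± 0.08 (SD, n = 3) with 65–79*SE in replicates 1–3, 6.45 ± 0.03 and 6.88 ± 0.02 with 65–79*PE in both sets, and 0.47 ± 0.05 and 0.87 ± 0.29 in PBS. The 3 libraries labelled 65–79*SE with IFNγ in replicates 4–6 went against this label, at 0.71 ± 0.23. The 12 genes known to respond to Il-4 averaged -2.04 ± 0.12 and -2.08 ± 0.18 in PBS of the Il-4 series, 0.09 ± 0.19 and -0.25 ± 0.06 with 65–79*SE and 0.01 ± 0.26 and -0.43 ± 0.04 with 65–79*PE. The PBS means of -2.04 and -2.08 are low, so some of these genes may lie near a count of 0. A weak Il-4 response in PBS could thus be missed. Since PBS libraries showed neither response by these means, a contrast against PBS holds cytokine and peptide, whose shares cannot be told apart. In bulk RNA, a change in the share of cells and a change in RNA per cell cannot be told apart either.

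In the IFNγ series, the transferrin receptor was lower and ferroportin and Slc11a1 were higher than in PBS in every set of libraries that showed an IFNγ response. Both ferritin chains were called higher in replicates 1–3 with either peptide, and neither was called in replicates 4–6 with 65–79*PE. In the libraries labelled 65–79*SE with IFNγ of replicates 4–6, no member was called. Calls required both a fold change over 1.5 and p under 0.05 by the edgeR quasi-likelihood test, after Benjamini-Hochberg adjustment over all genes tested. By this rule, 5 of 8 members were called for 65–79*SE against PBS in replicates 1–3 (4 higher, 1 lower), where 21.2% of all genes tested were called (11% higher, 10.2% lower). In replicates 4–6, 0 of 8 were called by edgeR and 0 by DESeq2, against a background of 2.04% (0.873% higher, 1.16% lower), with 1 member at an unadjusted p under 0.05. For 65–79*PE against PBS, 6 of 8 passed in replicates 1–3 (4 higher, 2 lower), against 18.5% of all genes (8.38% higher, 10.1% lower). In the other set, 3 of 8 passed (2 higher, 1 lower), against 11.2% (6.4% higher, 4.77% lower). The median log2 fold change of the 8 members was 0.71 and -0.02 for 65–79*SE in replicates 1–3 and 4–6 and 0.37 and -0.02 for 65–79*PE, with medians over all genes of -0.04, -0.003, -0.04 and -0.001. Contrasts of both peptides share the PBS libraries of their set.

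**Figure D1:**
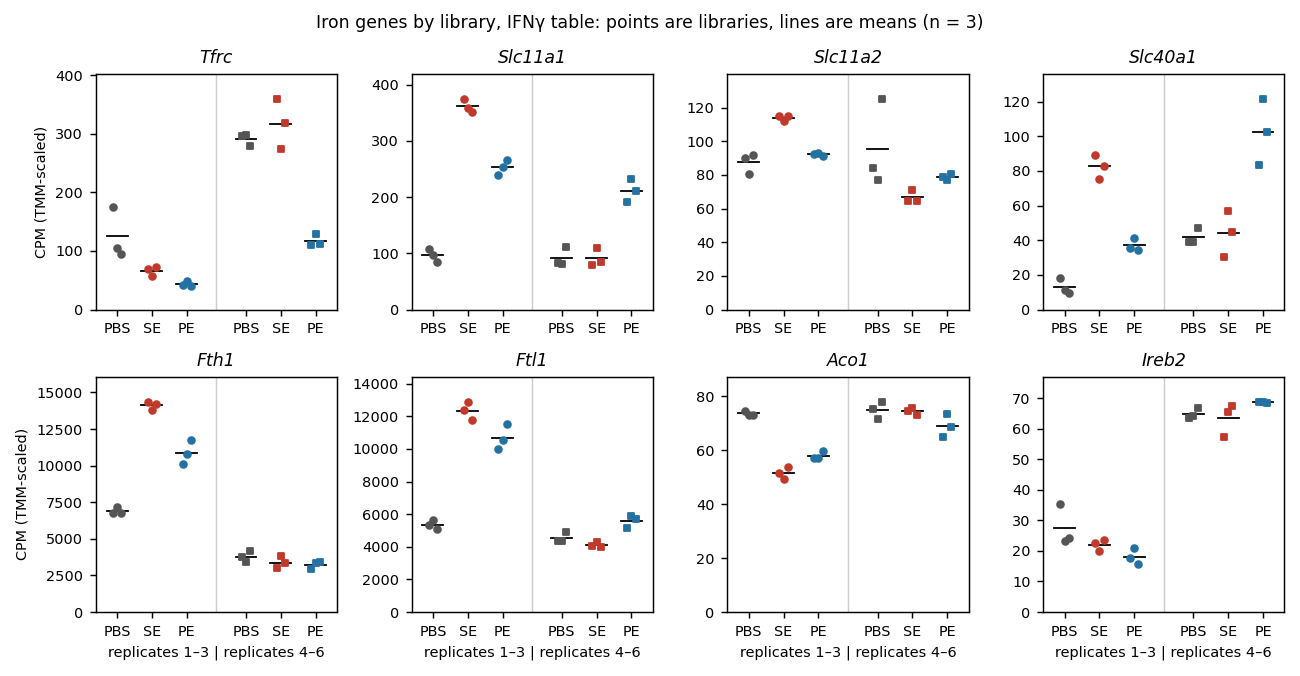
Level of each gene (CPM, TMM-scaled, linear axis from 0) in the 18 libraries of the IFNγ series, by group and by replicates 1–3 (circles) or 4–6 (squares). Points are libraries and lines are means of 3. Slc11a1 with 65–79*PE sits above PBS in both sets, and the libraries labelled 65–79*SE of replicates 4–6 sit among the PBS libraries for Slc11a1 and Slc40a1.

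Tfrc (chr16:32608920-32632794, plus strand) encodes the receptor that takes up iron bound to transferrin. In replicates 1–3, its level was 176, 106 and 94.0 CPM in PBS, 68.99, 57.02 and 72.8 CPM with 65–79*SE and 41.4, 49.2 and 39.9 CPM with 65–79*PE. The 3 groups did not overlap, with PBS highest and 65–79*PE lowest. Against PBS, Tfrc changed by -0.92 ± 0.17 log2 units (± standard error of the fit) with 65–79*SE (adjusted p = 0.000136) and by -1.52 ± 0.17 with 65–79*PE (adjusted p = 5.75e-07), which was 2.88-fold lower. PBS replicate 1 stood above the other PBS libraries of the set, and without it the change with 65–79*SE was -0.59 (adjusted p = 0.000447). Levels of Tfrc in replicates 4–6 were 297, 298 and 279 CPM in PBS, 359, 274 and 319 CPM in the libraries labelled 65–79*SE and 109.9, 129 and 112 CPM with 65–79*PE. The first 2 groups overlapped, and every 65–79*PE library was below both. Tfrc was again lower with 65–79*PE, at -1.31 ± 0.17 log2 units (adjusted p = 5.02e-06), and the change with 65–79*PE did not pass the test for a difference between the sets (-0.27 to 0.70 log2 units, 95% interval).

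Slc11a1 (chr1:74375195-74386062, plus strand), also known as Nramp1, encodes a metal transporter of the phagosome membrane that is tied to resistance against intracellular microbes. Levels of Slc11a1 in replicates 1–3 were 108, 97.4 and 83.8 CPM in PBS, 374, 359 and 351 CPM with 65–79*SE and 239, 253 and 266 CPM with 65–79*PE. The groups did not overlap, with 65–79*SE highest. The rise was 3.75-fold with 65–79*SE (1.91 ± 0.13 log2 units, adjusted p = 3.59e-10) and 2.62-fold with 65–79*PE (1.39 ± 0.13, adjusted p = 4.52e-08). Levels of Slc11a1 in replicates 4–6 were 82.8, 80.5 and 112 CPM in PBS, 79.1, 109.9 and 83.97 CPM in the libraries labelled 65–79*SE and 192, 232 and 211 CPM with 65–79*PE. All 65–79*PE libraries were above the other 6, which overlapped. The rise with 65–79*PE was 2.31-fold (1.21 ± 0.13, adjusted p = 4.57e-07).

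Slc11a2 (chr15:100387898-100425072, minus strand), or DMT1, moves ferrous iron out of the endosome after the transferrin receptor has brought it in. It was not called in any contrast against PBS of the IFNγ series. In replicates 1–3, it was 90.2, 80.5 and 92.1 CPM in PBS, 115, 112 and 115 CPM with 65–79*SE and 92.3, 92.9 and 91.1 CPM with 65–79*PE. The 65–79*SE libraries lay above PBS by 0.38 ± 0.12 log2 units (adjusted p = 0.0119), short of 1.5-fold. In replicates 4–6, the values were 83.8, 77.1 and 125 CPM in PBS, 64.2, 71.1 and 64.5 CPM in the libraries labelled 65–79*SE and 78.8, 76.8 and 80.4 CPM with 65–79*PE. Here the libraries labelled 65–79*SE lay below PBS, at -0.52 ± 0.12 log2 units (adjusted p = 0.0163), also short of 1.5-fold, and PBS replicate 6 stood above the others. That call was made with library totals in place of TMM (-0.59, adjusted p = 0.0114) and without PBS replicate 4 or PBS replicate 5 (-0.61 and -0.65).

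Slc40a1 (chr1:45908068-45926523, minus strand) encodes ferroportin, the iron exporter of the cell surface. With 65–79*SE in replicates 1–3, it showed the widest change of the 8 members. In replicates 1–3, its level was 17.99, 11.2 and 9.75 CPM in PBS, 89.2, 75.4 and 82.9 CPM with 65–79*SE and 35.8, 41.2 and 34.1 CPM with 65–79*PE. The groups did not overlap. Ferroportin RNA was 6.33-fold higher with 65–79*SE (2.66 ± 0.21 log2 units, adjusted p = 3.19e-09) and 2.84-fold higher with 65–79*PE (1.50 ± 0.21, adjusted p = 7.9e-06). Levels of Slc40a1 in replicates 4–6 were 38.8, 39.2 and 47.1 CPM in PBS, 30.4, 57.1 and 44.9 CPM in the libraries labelled 65–79*SE and 83.5, 121 and 102 CPM with 65–79*PE. PBS in this set stood above every PBS library of replicates 1–3. The 65–79*PE libraries were above the other 6, with a 2.46-fold rise (1.30 ± 0.19, adjusted p = 3.76e-05).

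Fth1 (chr19:9980598-9985098, plus strand) encodes the ferritin heavy chain, which oxidizes iron for storage. Levels of Fth1 in replicates 1–3 were 6746, 7161 and 6745 CPM in PBS, 14360, 13790 and 14240 CPM with 65–79*SE and 10080, 10820 and 11780 CPM with 65–79*PE. The groups did not overlap, and the rises were 2.05-fold (1.04 ± 0.09 log2 units, adjusted p = 2.61e-08) and 1.58-fold (0.66 ± 0.09, adjusted p = 1.13e-05). Levels of Fth1 in replicates 4–6 were 3751, 3410 and 4203 CPM in PBS, 2992, 3802 and 3320 CPM in the libraries labelled 65–79*SE and 2948, 3348 and 3436 CPM with 65–79*PE. These groups overlapped, and all lay below PBS of replicates 1–3. With 65–79*PE, Fth1 was at -0.22 ± 0.09 log2 units against PBS (adjusted p = 0.0872), although those libraries showed the IFNγ response. The change with 65–79*PE differed between the sets by -0.89 ± 0.13 log2 units (adjusted p = 0.000406), 1 of 3 members of 8 that passed this test, against 5.74% of all genes. Slc11a1 and ferroportin did not pass it.

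Ftl1 (chr7:45457944-45459884, minus strand) encodes the ferritin light chain, which helps the iron core form. Levels of Ftl1 in replicates 1–3 were 5313, 5646 and 5118 CPM in PBS, 12390, 12890 and 11770 CPM with 65–79*SE and 9972, 10530 and 11540 CPM with 65–79*PE. PBS lay below both peptide groups, which did not overlap each other, with rises of 2.3-fold (1.20 ± 0.08 log2 units, adjusted p = 2.52e-10) and 1.99-fold (0.99 ± 0.08, adjusted p = 6.16e-09). Levels of Ftl1 in replicates 4–6 were 4352, 4325 and 4926 CPM in PBS, 4066, 4286 and 3961 CPM in the libraries labelled 65–79*SE and 5161, 5898 and 5687 CPM with 65–79*PE. The libraries labelled 65–79*SE lay lowest, without overlap. The 65–79*PE libraries were above PBS by 0.30 ± 0.08 log2 units (adjusted p = 0.00695), short of 1.5-fold. As for the heavy chain, the change with 65–79*PE was smaller in this set, with a difference of -0.69 ± 0.11 log2 units (adjusted p = 0.000735).

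Light chain levels were less certain than those of the other members, because the mouse genome holds close copies of Ftl1. Of the 869 windows of 100 bases (the read length) in the Ftl1 transcript, 60.4% occurred unchanged in a transcript of another gene, 59.3% in Ftl1-ps1 alone, against 0.964% for Fth1 and 0 for the other 6 members. In the IFNγ table, the rows Ftl1-ps1, Ftl1-ps2, Ftl2-ps and Gm15590 together took 46.1% to 46.6% of light chain counts in replicates 1–3 and 39.3% to 42.4% in replicates 4–6. In the Il-4 table, the same rows took 1.05% to 1.21% and 0.504% to 0.615%. The tables therefore split light chain reads differently, and Ftl1 levels should not be compared between them. The study's methods describe counting of uniquely aligned reads, and the origin of this difference was not tested. Within a table the share was nearly even over the groups of a set, and with the copies added to Ftl1 the changes in replicates 1–3 were 1.21 with 65–79*SE and 1.00 with 65–79*PE, close to those of Ftl1 alone.

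**Figure D2:**
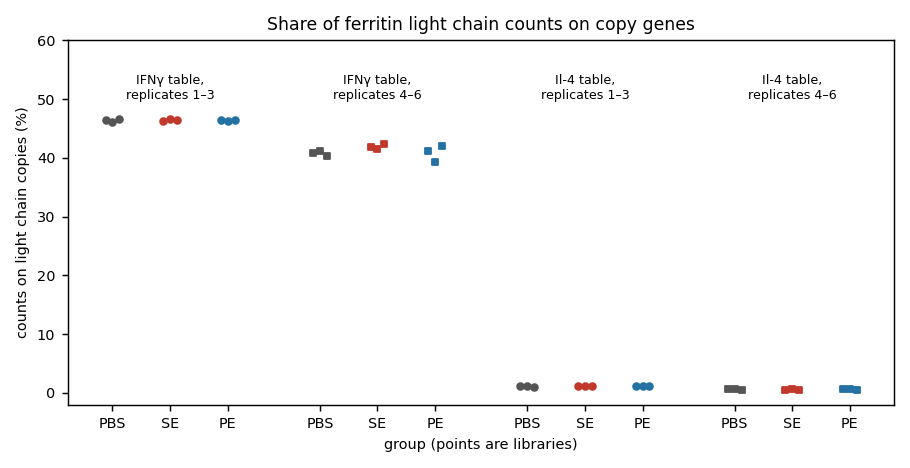
Percent of ferritin light chain counts that fell on the 4 copy genes (Ftl1-ps1, Ftl1-ps2, Ftl2-ps and Gm15590) in each of the 36 libraries, by table, replicates 1–3 (circles) or 4–6 (squares) and group. The share is 39.3% to 46.6% in the IFNγ table and 0.504% to 1.21% in the Il-4 table.

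Aco1 (chr4:40143081-40198338, plus strand) encodes a cytosolic aconitase that turns into iron regulatory protein 1 when it loses its iron-sulphur cluster. It changed by less than 1.5-fold in every contrast of the IFNγ series. Levels of Aco1 in replicates 1–3 were 74.5, 73.2 and 73.2 CPM in PBS, 51.6, 49.2 and 53.6 CPM with 65–79*SE and 57.1, 57.1 and 59.7 CPM with 65–79*PE. The PBS libraries were above the other 6, by less than 1.5-fold, with changes of -0.52 ± 0.06 (adjusted p = 8.34e-07) and -0.34 ± 0.06 log2 units (adjusted p = 0.000121). Over replicates 4–6, the 9 libraries ran from 64.8 to 77.9 CPM and the groups overlapped.

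Ireb2 (chr9:54863789-54912530, plus strand) encodes iron regulatory protein 2, which is degraded when iron is plentiful. Levels of Ireb2 in replicates 1–3 were 35.4, 23.3 and 24.1 CPM in PBS, 22.7, 19.9 and 23.4 CPM with 65–79*SE and 17.9, 20.9 and 15.8 CPM with 65–79*PE. It was 1.52-fold lower with 65–79*PE (-0.60 ± 0.13 log2 units, adjusted p = 7e-04), just past the fold limit. PBS replicate 1 was again the highest, and without it the change was -0.39 (adjusted p = 0.00547), short of 1.5-fold. Without 65–79*PE replicate 3 or replicate 6 it was -0.51 and -0.55, and the call was lost in 7 of 26 alternatives in all. Over replicates 4–6, the 9 libraries ran from 57.2 to 68.8 CPM, every one above all 9 libraries of replicates 1–3, and Ireb2 was not called, although the 65–79*PE libraries lay above the other 6.

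**Figure D3:**
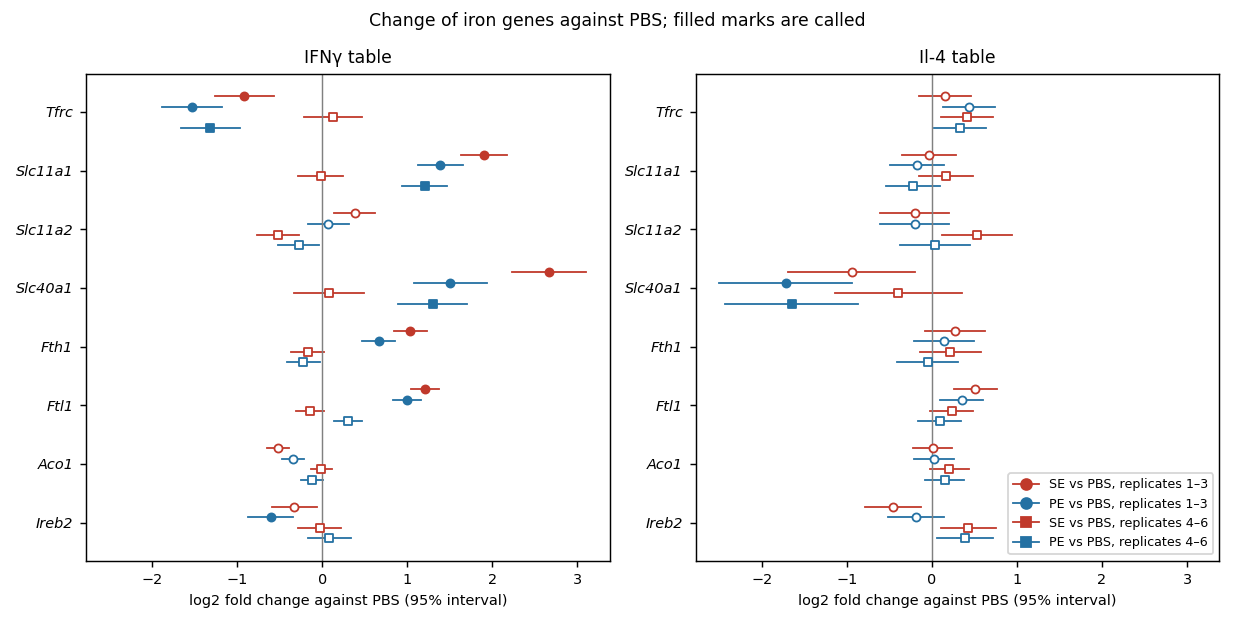
Log2 fold change against PBS (x axis, with 95% interval) of each gene with 65–79*SE (red) and 65–79*PE (blue) in the IFNγ table (left) and the Il-4 table (right). Circles are replicates 1–3, squares are replicates 4–6, and filled marks were called. Slc40a1 lies to the right of 0 with 65–79*PE in the IFNγ table and to the left of 0 in the Il-4 table.

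With all 6 replicates in 1 model and the label set as a term, Slc11a1 (1.04 ± 0.28 log2 units, adjusted p = 0.0292) and Slc40a1 (1.53 ± 0.39, adjusted p = 0.0257) were called for 65–79*SE against PBS, 2 of 8 members against 3.57% of all genes. That model averaged sets that differed: 6 members passed the test of the difference between sets for this contrast, against 22.8% of all genes. Without the 3 libraries that went against their label, 5 of 8 members were called, and the changes were 1.88 for Slc11a1 and 2.62 for Slc40a1. That fit holds 65–79*SE in replicates 1–3 only, so it largely restates that set and is not a result of 6 replicates. Its share of all genes called is not given here, and in replicates 1–3 alone that share was 21.2%. Both calls were lost in 8 of 26 alternatives, among them those without the label set term (adjusted p = 0.15 and 0.31) and without any 1 of the PBS or 65–79*SE libraries of replicates 1–3 (adjusted p of 0.059 to 0.0873). For 65–79*PE against PBS, 4 of 8 members were called, against 13% of all genes, with Tfrc at -1.43 ± 0.18 (adjusted p = 3.73e-05), Slc11a1 at 1.28 ± 0.27 (adjusted p = 0.0017), Slc40a1 at 1.37 ± 0.37 (adjusted p = 0.00884) and Ftl1 at 0.61 ± 0.17 (adjusted p = 0.0116). The Ftl1 call ended without PBS replicate 1, 2 or 3 or 65–79*PE replicate 3 (0.52 to 0.58, short of 1.5-fold) and with DESeq2 (adjusted p = 0.159), and without the label set term Slc11a1 alone was called.

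The peptides were compared directly, at the same dose, cytokine and time. In replicates 1–3 of the IFNγ series, ferroportin was 2.23-fold higher with 65–79*SE than with 65–79*PE (1.16 ± 0.19 log2 units, 95% interval 0.75 to 1.56, adjusted p = 3e-04). Tfrc was 1.52-fold higher (0.61 ± 0.17, 95% interval 0.26 to 0.96, adjusted p = 0.015). These were the 2 of 8 members called, both higher, against 5.33% of all genes (4.1% higher, 1.23% lower). The Tfrc call was lost with library totals and without 65–79*SE replicate 1 or 3 or 65–79*PE replicate 1 or 3 (0.54 to 0.58, adjusted p of 0.0578 to 0.0779 without 1 library). Slc11a1 (0.52 ± 0.12, adjusted p = 0.0061) and Fth1 (0.38 ± 0.09, adjusted p = 0.00769) were also higher with 65–79*SE, by less than 1.5-fold. The other 4 members were not called, and their 95% intervals of the difference were 0.06 to 0.55 for Slc11a2, 0.05 to 0.37 for Ftl1, -0.30 to -0.05 for Aco1 and 0.01 to 0.54 for Ireb2. In these libraries 65–79*SE thus stood further from PBS than 65–79*PE for ferroportin and nearer to it for Tfrc.

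In replicates 4–6, 3 of 8 members were called between the arms, against 13.9% of all genes (5.76% higher, 8.1% lower), and 2 of them pointed the other way. The libraries labelled 65–79*SE were lower than 65–79*PE in Slc11a1 (-1.22 ± 0.13, adjusted p = 3.63e-07) and Slc40a1 (-1.22 ± 0.20, adjusted p = 6.91e-05) and higher in Tfrc (1.44 ± 0.17, adjusted p = 1.42e-06). Ftl1 was at -0.44 ± 0.08 (adjusted p = 0.00019), short of 1.5-fold. Here 1 arm showed the IFNγ response and the other did not, so a difference between the peptides cannot be told apart from a difference in the response to the cytokine. The sets differed, by the test, for 4 of 8 members, at -2.38 ± 0.28 log2 units for Slc40a1, -1.74 ± 0.18 for Slc11a1, 0.83 ± 0.23 for Tfrc and -0.65 ± 0.11 for Ftl1, against 16.6% of all genes. In the model of all replicates, only Tfrc was called (1.05 ± 0.18, adjusted p = 0.0014, 1 of 8 members against 3.19% of all genes). Without the 3 libraries that went against their label, Tfrc was at 0.55 (adjusted p = 0.0197), short of 1.5-fold, and Slc40a1 was called instead (1.21, adjusted p = 5.79e-05). That fit, too, holds 65–79*SE in replicates 1–3 only.

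**Figure D4:**
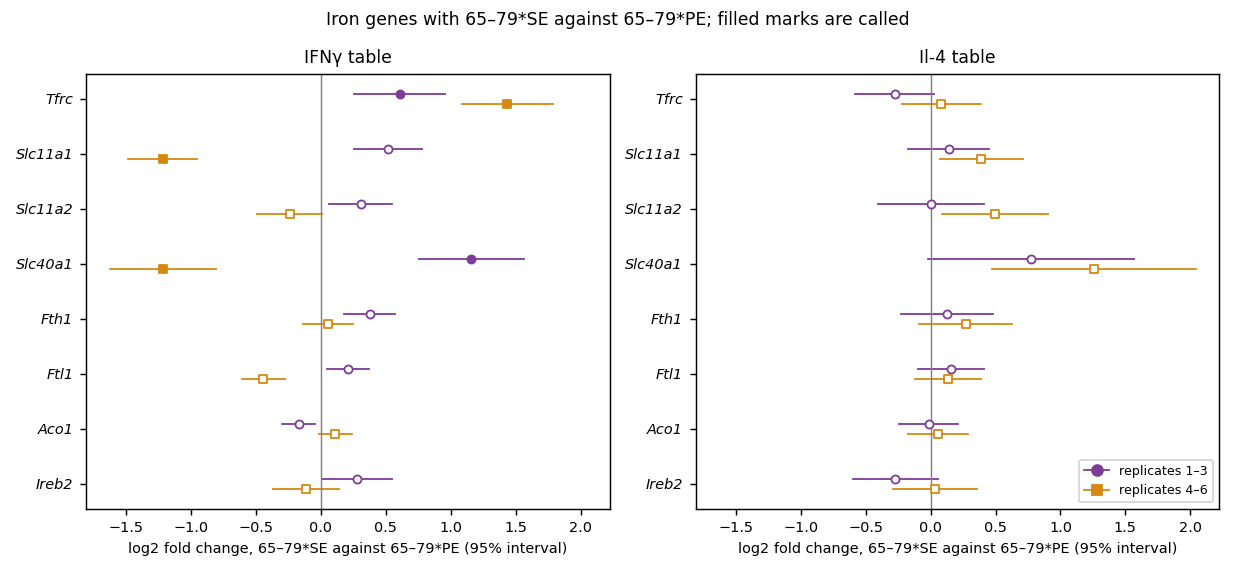
Log2 fold change of each gene with 65–79*SE against 65–79*PE (x axis, with 95% interval) in the IFNγ table (left) and the Il-4 table (right). Circles are replicates 1–3, squares are replicates 4–6, and filled marks were called. Slc40a1 in the IFNγ table lies at 1.16 in replicates 1–3 and at -1.22 in replicates 4–6.

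In the Il-4 series, ferroportin was the 1 member called, lower with 65–79*PE in both sets. Its level in replicates 1–3 was 7.46, 10.5 and 13.98 CPM in PBS, 3.31, 8.20 and 5.20 CPM with 65–79*SE and 2.31, 3.83 and 3.61 CPM with 65–79*PE. In replicates 4–6, it was 6.81, 8.51 and 13.7 CPM, 10.8, 4.57 and 6.83 CPM and 3.34, 3.64 and 2.12 CPM. In each set every 65–79*PE library was below every PBS library, and 65–79*SE overlapped PBS. The fall with 65–79*PE was 3.29-fold in replicates 1–3 (-1.72 ± 0.37 log2 units, adjusted p = 0.0117), 3.14-fold in replicates 4–6 (-1.65 ± 0.37, adjusted p = 0.0141) and 3.21-fold in the model of all replicates (-1.68 ± 0.26, adjusted p = 0.000271). This was 1 of 8 members in each, against 3.48%, 3.58% and 4.35% of all genes. Within a set, the call was lost without PBS replicate 3 (adjusted p = 0.0708) or 65–79*PE replicate 1 (0.0551) in replicates 1–3, and without PBS replicate 6 (0.084), 65–79*PE replicate 4 (0.0623) or replicate 6 (0.0557) in replicates 4–6. With 65–79*SE, ferroportin was at -0.94 ± 0.36 (adjusted p = 0.0864) and -0.39 ± 0.36 log2 units (adjusted p = 0.552) against PBS, and 0 of 8 members were called in either set by edgeR or DESeq2, against 6.17% and 2.21% of all genes (0 of 8 over all replicates, against 3.1%), with 3 members of 8 at an unadjusted p under 0.05 in each set. Some alternatives did call ferroportin with 65–79*SE. In replicates 1–3 these included no low count filter (-0.90, adjusted p = 0.000456) and a term for replicate number (-0.97, adjusted p = 0.0332). Over all replicates they included no filter (-0.64, adjusted p = 0.000849) and the fit without 65–79*SE replicate 4 (-0.87, adjusted p = 0.0271). Without the filter the changes stayed near those of the main fit (-0.94 and -0.66). The share of all genes called there is not given here.

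**Figure D5:**
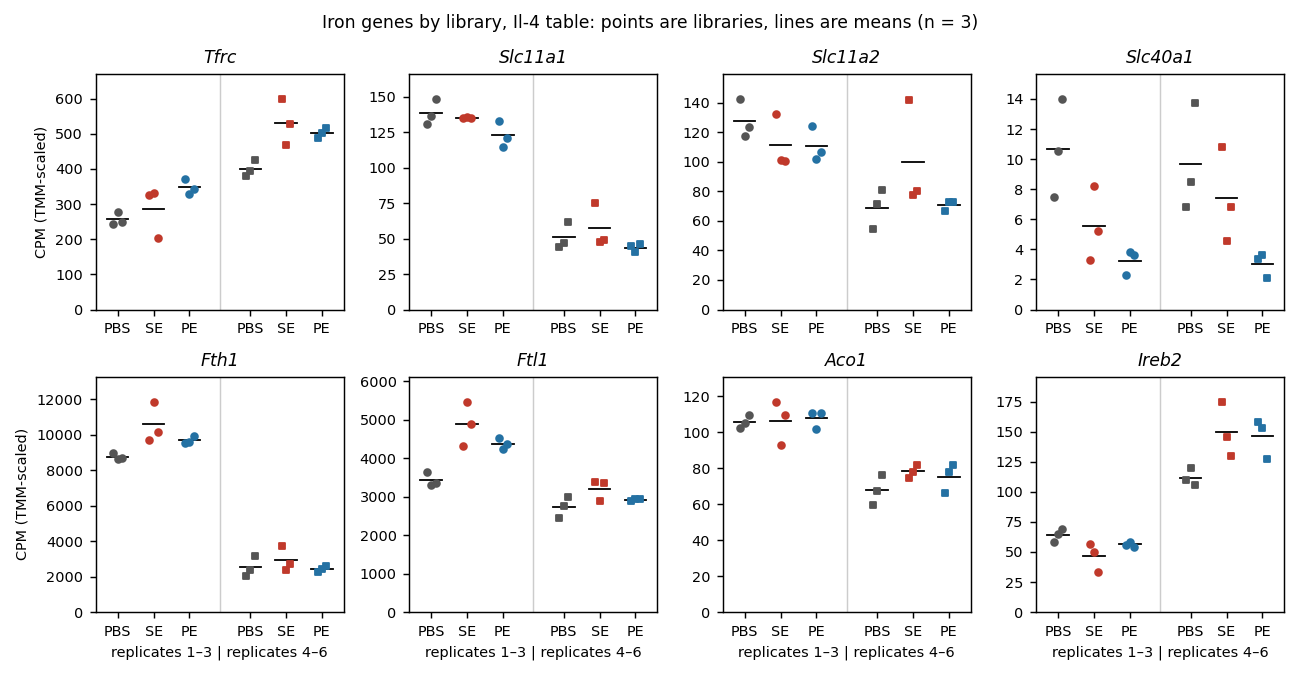
Level of each gene (CPM, TMM-scaled, linear axis from 0) in the 18 libraries of the Il-4 series, by group and by replicates 1–3 (circles) or 4–6 (squares). Points are libraries and lines are means of 3. The 65–79*PE libraries lie below the PBS libraries for Slc40a1 in both sets, and Fth1 lies higher in replicates 1–3 than in replicates 4–6 in every group.

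No other member was called with Il-4. Tfrc was 244, 278 and 249 CPM in PBS, 327, 330.2 and 204 CPM with 65–79*SE and 370.5, 328 and 343 CPM with 65–79*PE in replicates 1–3, and 379.7, 394 and 424 CPM, 598, 467 and 527 CPM and 487, 502 and 516 CPM in the same groups of replicates 4–6. The 65–79*PE libraries lay above PBS in both sets, by 0.43 ± 0.14 and 0.33 ± 0.14 log2 units, and over all replicates by 0.39 ± 0.11 (adjusted p = 0.0226), short of 1.5-fold. The receptor thus stood above PBS with 65–79*PE and Il-4 and below PBS with 65–79*PE and IFNγ. Slc11a1 was 131, 136 and 148 CPM in PBS, 135, 136 and 135 CPM with 65–79*SE and 133, 115 and 121 CPM with 65–79*PE in replicates 1–3, and 44.3, 46.8 and 61.8 CPM, 75.2, 47.3 and 49.2 CPM and 44.4, 40.7 and 45.9 CPM in the same groups of replicates 4–6. Peptide and PBS libraries overlapped in both sets, while every 65–79*SE library was above every 65–79*PE library of its set. That difference was not called in either set. It was 0.14 ± 0.15 log2 units in replicates 1–3 and 0.39 ± 0.15 in replicates 4–6 (adjusted p = 0.45 by edgeR in the latter).

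Among the storage genes, Ftl1 stood at 3641, 3307 and 3351 CPM in PBS, 4317, 5466 and 4885 CPM with 65–79*SE and 4516, 4249 and 4378 CPM with 65–79*PE in replicates 1–3. The 65–79*SE libraries were above PBS by 0.51 ± 0.12 log2 units (adjusted p = 0.0113), short of 1.5-fold, and by 0.23 ± 0.12 in replicates 4–6 (adjusted p = 0.287). Without 65–79*SE replicate 1 the first of these was 0.59 and was called (adjusted p = 0.00334). Fth1 ran from 8630 to 11870 CPM over the 9 libraries of replicates 1–3 and from 2048 to 3719 CPM over those of replicates 4–6, with no called change, although both peptide groups lay above PBS in replicates 1–3. Aco1 (59.6 to 116.9 CPM) and Slc11a2 (54.2 to 142.3 CPM over 18 libraries) were not called either. Ireb2 was 58.3, 64.6 and 69.3 CPM in PBS and 56.7, 50.01 and 33.1 CPM with 65–79*SE in replicates 1–3, and 109.8, 119.5 and 105 CPM and 175, 145 and 129.8 CPM in replicates 4–6. The 65–79*SE libraries were thus below PBS in one set and above it in the other, and the sets differed by 0.89 ± 0.22 log2 units (adjusted p = 0.0333, 1 of 8 members against 3.91% of all genes). Without 65–79*SE replicate 1, the fall in replicates 1–3 was -0.62 and was called (adjusted p = 0.0118). The call between sets was lost in 10 of 24 alternatives, 9 of them the omission of a single library (PBS replicate 2, 3, 4 or 6, 65–79*SE replicate 2, 3, 4 or 5, or 65–79*PE replicate 5), with adjusted p up to 0.102. With Il-4, 0 of 8 members differed between sets for 65–79*PE against PBS (0.00705% of all genes) or between the peptides (0%) by edgeR, with 1 and 0 at an unadjusted p under 0.05.

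Between the peptides with Il-4, 0 of 8 members were called in either set or over all replicates by edgeR, where 0%, 0% and 0.00741% of all genes were called and 0, 3 and 2 members had an unadjusted p under 0.05. The widest difference was that of ferroportin, higher with 65–79*SE by 0.77 ± 0.38 log2 units in replicates 1–3 (95% interval -0.02 to 1.57), by 1.25 ± 0.37 in replicates 4–6 (0.47 to 2.04) and by 1.02 ± 0.26 over all replicates (0.48 to 1.57, adjusted p = 0.361). Over all replicates, the intervals were -0.32 to 0.13 for Tfrc, 0.04 to 0.49 for Slc11a1, -0.07 to 0.59 for Slc11a2, -0.05 to 0.44 for Fth1, -0.04 to 0.33 for Ftl1, -0.15 to 0.18 for Aco1 and -0.41 to 0.20 for Ireb2. The Slc11a1 difference had an adjusted p of 0.559 by edgeR. Ferroportin was called over all replicates with DESeq2 (1.03, adjusted p = 0.0411) and without the low count filter (1.02, adjusted p = 9.04e-08), and in replicates 4–6 without that filter (1.25, adjusted p = 1.94e-06). Without the filter the changes were nearly those of the main edgeR fit, where ferroportin was not called (adjusted p = 0.361 and 0.296). The share of all genes called without the filter is not given here.

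Whether the arms with IFNγ and with Il-4 moved the members differently was tested on the contrasts against PBS, in 1 model of all 36 libraries. Each series has its own PBS libraries, so these contrasts share none. Because a cytokine was used in 1 series only, a difference between cytokines cannot be told apart from one between the series. Ferroportin showed the widest difference, and with 65–79*PE it was called higher in one series and lower in the other. For 65–79*PE, its change was 3.22 ± 0.43 log2 units greater with IFNγ than with Il-4 in replicates 1–3 (adjusted p = 1.36e-06) and 2.86 ± 0.42 greater in replicates 4–6 (adjusted p = 1.06e-05). Slc11a1 differed by 1.55 ± 0.20 (adjusted p = 7.51e-07) and 1.36 ± 0.20 (adjusted p = 9.3e-06), and Tfrc by -1.97 ± 0.23 (adjusted p = 1.26e-07) and -1.71 ± 0.23 (adjusted p = 1.62e-06). These 3 members differed in both sets, and Ftl1 in replicates 1–3 (0.63 ± 0.15, adjusted p = 0.00213), which makes 4 and 3 of 8 members against 13.4% and 11.6% of all genes. The Ftl1 difference fell short of 1.5-fold without PBS replicate 1 or 65–79*PE replicate 3 of the IFNγ series or 65–79*PE replicate 2 of the Il-4 series.

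For 65–79*SE, 6 of 8 members differed between the series in replicates 1–3, against 19.7% of all genes. Slc40a1 differed by 3.55 ± 0.41 (adjusted p = 9.91e-08), Slc11a1 by 1.88 ± 0.20 (adjusted p = 1.87e-08) and Tfrc by -1.13 ± 0.22 log2 units (adjusted p = 0.00028). The ferritin chains differed by 0.70 ± 0.20 for Fth1 (adjusted p = 0.00728) and 0.63 ± 0.15 for Ftl1 (adjusted p = 0.00145), and the latter fell short of 1.5-fold without 65–79*SE replicate 1 of the Il-4 series. Aco1, at -0.59 ± 0.12 (adjusted p = 0.000479), sat at the fold limit and fell short of it in 25 of 42 alternatives (-0.66 to -0.51 over all of them). In replicates 4–6, where the libraries labelled 65–79*SE with IFNγ went against their label, 1 of 8 members differed, Slc11a2 (-1.05 ± 0.23, adjusted p = 0.00674), against 5.24% of all genes.

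Levels can be compared between genes only per length, and the order depended on which length was used. In PBS, the ferritin chains stood far above the rest by either length. Over the 3 PBS libraries of replicates 1–3 of the IFNγ series, means per kb of 1 representative transcript were 7410 ± 258 CPM (SD, n = 3) for Fth1 and 5540 ± 276 for Ftl1. Slc11a1 (41.7 ± 5.29), Tfrc (25.6 ± 9.01), Slc11a2 (19.8 ± 1.4) and Aco1 (19.2 ± 0.199) followed, and Ireb2 (4.78 ± 1.17) and Slc40a1 (3.86 ± 1.3) came last. Neighbours from Tfrc to Aco1, and Ireb2 and Slc40a1, lay within their spread of each other. Per kb of all annotated exons, which for Fth1 sum to more than its transcript, the ferritin order turned, with 4000 ± 199 for Ftl1 and 1980 ± 69.3 for Fth1. These Ftl1 values leave out its copies, which took 46.1% to 46.6% of light chain counts in this set. The order of the ferritin chains per kb of transcript thus also depends on where those reads are placed. Ireb2 and Slc40a1 also changed places between the lengths in replicates 4–6 of the IFNγ series, at 6.83 ± 0.183 and 4.63 ± 0.517 CPM per kb of exons and 11.2 ± 0.3 and 12.4 ± 1.38 per kb of transcript. In the Il-4 series, ferroportin was the lowest of the 8 by both lengths in both sets. Ferritin rows, copies included, took 1.88% to 4.33% of all counts in replicates 1–3 of the IFNγ series and 0.813% to 1.23% in replicates 4–6, and 1.22% to 1.68% and 0.48% to 0.701% in the Il-4 series. Ferritin was thus the larger share in replicates 1–3 of both series.

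Other genes of iron and heme handling were read from a list of 38, of which 28 passed the filter. In the IFNγ series, 13 of these 28 passed for 65–79*SE against PBS in replicates 1–3, with 6 higher and 7 lower, against 21.2% of all genes, and 1 passed, lower, in replicates 4–6, against 2.04%. For 65–79*PE, 5 were higher and 6 lower in the first set (18.5% of all genes), and 2 higher and 4 lower in the second (11.2%). The 4 called in the same direction in both sets were Blvrb, which encodes biliverdin reductase B of heme breakdown (2.36 ± 0.12 and 1.73 ± 0.12 log2 units, adjusted p = 1.07e-11 and 1.16e-09), Ncoa4, the receptor that delivers ferritin to the lysosome for breakdown (-1.23 ± 0.10 and -0.62 ± 0.10, adjusted p = 6.24e-09 and 5.95e-05), Steap3, the reductase of transferrin-bound iron in the endosome (-0.83 ± 0.13 and -0.85 ± 0.13, adjusted p = 2.45e-05 and 5.09e-05) and Abcg2, a transporter that exports porphyrins (-1.51 ± 0.41 and -1.16 ± 0.38, adjusted p = 0.006 and 0.0307), which averaged under 1 CPM in PBS. Steap3, which acts beside the transferrin receptor, fell as Tfrc did.

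In the Il-4 series, 5 of the 28 were called for 65–79*SE in replicates 1–3 (3 higher, 2 lower) and 3 (all higher) in replicates 4–6, against 6.17% and 2.21% of all genes. Against PBS, 65–79*PE had 4 called in each set (2 higher, 2 lower), against 3.48% and 3.58%. Cp, the ferroxidase ceruloplasmin, which works with ferroportin in iron export, rose in both sets with 65–79*SE (0.72 ± 0.11 and 1.59 ± 0.11 log2 units, adjusted p = 0.000644 and 1.24e-07) and with 65–79*PE (0.89 ± 0.11 and 1.46 ± 0.11, adjusted p = 8.47e-05 and 3.7e-07). Hfe, which binds the transferrin receptor, rose in both sets with 65–79*PE (0.71 ± 0.14 and 0.83 ± 0.14, adjusted p = 0.0069 and 0.00216), and Blvrb with 65–79*SE (0.59 ± 0.18 and 0.71 ± 0.18, adjusted p = 0.0345 and 0.0393). Between the peptides, 1 of the 28 was called in replicates 1–3 with IFNγ, against 5.33% of all genes. In replicates 4–6, where the libraries labelled 65–79*SE lacked the IFNγ response, 9 were called, against 13.9%. With Il-4, 0 were called by edgeR in either set, and 1 and 4 had an unadjusted p under 0.05.

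The genes whose pattern was most like that of a member were found by the root mean square difference of log2 CPM over the 18 libraries of a series, after each gene was centred within its set. In the IFNγ series, 9098 genes were searched. Nearest to Tfrc was Atp6v0d2, a subunit of the proton pump that acidifies endosomes (0.167), and nearest to Slc11a1 were Gm21399 (0.139) and Prdx1 (0.15). Ferroportin was nearest to Slc11a1 itself (0.292), while its own spread by this measure was 0.925. Ftl1 was nearest to its copies Ftl2-ps and Gm15590 (0.039 each). In the Il-4 series, with 8761 genes searched, ferroportin was nearest to Ifi44l (0.347) and Rtp4 (0.392), both known as interferon-stimulated genes. These distances were larger than those of the other members, and so was ferroportin's own spread, at 0.804.

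Promoter sequences were given for 6 of the 8 members, with 8 start sites in all (RefSeq, GRCm38.p6), and not for Slc40a1 or Slc11a2. In the 250 bases before the start, 5 short motifs were searched on both strands: TGACNNNGC (antioxidant response), TTCNNNGAA (GAS), the STAT6 site, ACGTG (hypoxia response) and the ISRE core. There was 1 match, of ACGTG at a Tfrc start site. Over all 32851 promoters, these motifs were found in 10.2%, 7.02%, 5.85%, 16.6% and 2.98%. The loop CAGTGN was not found in the first 50 transcribed bases at any of the 8 start sites. That window is too short to reach the hairpins shown above, so this says nothing of them. Their loops start at base 99 of the Fth1 transcript and base 90 of the Ftl1 transcript, and those of Tfrc lie in the 3′ UTR.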

How the data were processed

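RNA-seq of RAW264.7 cells was taken from 2 deposited tables. Per the labels and the study's methods, the authors made poly(A) libraries with a TruSeq kit, read them single-end and ran featureCounts on GENCODE gene models of GRCm38.p5, keeping reads with 1 alignment. The deposited values were whole-number counts, not normalized, with gene symbols and no identifiers. Neither the aligner nor the strand setting is named (not given in the sources used here), so reads of overlapping antisense genes may be included. The submitters' processing notes also name DESeq2 1.16.1 and R 3.4.1. Coordinates are from GENCODE M21, a later release than the authors used.

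Counts were tested by edgeR 4.0.16 quasi-likelihood fits (R 4.3.3, TMM, filterByExpr). Each table was fitted with 6 cells (arm by label set), so that all 18 libraries shared 1 estimate of the spread, on 16845 genes in the IFNγ table and 14183 in the Il-4 table. A second model took arm and label set as terms (15949 and 13494 genes), and another all 36 libraries in 12 cells (17201 genes). Adjusted p-values are Benjamini-Hochberg values over all genes of a fit, and standard errors and 95% intervals are those of the fit. Depth was 17.05 M to 63.16 M counts. No library pair held identical values. The scripts were tested on simulated counts. The alternatives were RLE size factors, library totals, DESeq2 1.42.0, no low count filter, a replicate block, each set alone, no label set term, each library left out and the 3 libraries against their label left out. Addition of ferritin copies to Ftl1 and Fth1 was chosen after the data were seen.

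The members and the gene lists were chosen with earlier results of these data known. The rule for named genes took all 8 members, iron genes called in the same direction in both sets (at most 6 per contrast), the copies of ferritin genes (Gm15590 was added after its values were seen) and, for each member, the nearest genes with a mean of at least 10 CPM. Pairing by replicate number was judged from the data, since the labels give only the numbers. Whether PBS cells received cytokine was not settled by the text of the study.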

Additional observations from a re-analysis of the deposited data

Results flagged for a closer look

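Of 48 groups of 6 libraries tested for a library far from the rest, 1 stood out: PBS replicate 6 of the IFNγ series held 124.9 CPM of Slc11a2, and its gap to the next library was 0.632 of the range of the group. A chance rate of about 1 in 20 such groups holds only where all 6 libraries come from 1 population. Here the groups pooled both replicate sets, whose levels differed for some members, so that rate cannot be relied on. A library far from its own set could also be missed.

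Changes against PBS and between peptides were tested for a difference between replicates 4–6 and replicates 1–3, and 14 of 48 passed. The contrasts share libraries, so the 48 are not separate tests. Of all genes, 22.8% passed for 65–79*SE against PBS, 5.74% for 65–79*PE against PBS and 16.6% between the peptides with IFNγ. With Il-4, the shares in the same order were 3.91%, 0.00705% and 0%. For 65–79*SE against PBS with IFNγ, the log2 fold change in replicates 4–6 minus that in replicates 1–3 was 1.04 for Tfrc, -1.92 for Slc11a1, -0.90 for Slc11a2, -2.58 for Slc40a1, -1.21 for Fth1 and -1.35 for Ftl1. For 65–79*SE against 65–79*PE with IFNγ, it was 0.83 for Tfrc, -1.74 for Slc11a1, -2.38 for Slc40a1 and -0.65 for Ftl1. The libraries labelled 65–79*SE of replicates 4–6, which lacked the IFNγ response (mean log2 CPM of the response genes of 0.71 against 6.42 in replicates 1–3), enter all 10 of these values. For 65–79*PE against PBS with IFNγ, which does not use those libraries, it was -0.89 for Fth1, -0.69 for Ftl1 and 0.69 for Ireb2. The last of these ended without PBS replicate 1 (0.47) or 65–79*PE replicate 3 (0.59, adjusted p = 0.0564 by edgeR). For 65–79*SE against PBS with Il-4, it was 0.89 for Ireb2.

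Changes against PBS were also tested for a difference between the series, and 14 of 32 passed. Cytokine and series cannot be told apart in these tests. Of all genes, 19.7% and 5.24% passed for 65–79*SE in replicates 1–3 and 4–6, and 13.4% and 11.6% for 65–79*PE. The log2 fold change with IFNγ minus that with Il-4 for 65–79*SE in replicates 1–3 was -1.13 for Tfrc, 1.88 for Slc11a1, 3.55 for Slc40a1, 0.70 for Fth1, 0.63 for Ftl1 and -0.59 for Aco1, and in replicates 4–6 -1.05 for Slc11a2. For 65–79*PE, it was -1.97 for Tfrc, 1.55 for Slc11a1, 3.22 for Slc40a1 and 0.63 for Ftl1 in replicates 1–3, and -1.71 for Tfrc, 1.36 for Slc11a1 and 2.86 for Slc40a1 in replicates 4–6. The Ftl1 values rest on tables that split light chain reads between copies differently (46.1% to 46.6% on copies against 1.05% to 1.21% in replicates 1–3), and with the copies added they were 0.63 for either peptide.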

How the results depend on the processing

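No called change of a member reversed its direction under any alternative run. For 65–79*SE against PBS with IFNγ over all replicates, the 2 members called became 0 without the label set term and 0 with the replicate block. They became 5 without the 3 libraries against their label, where 65–79*SE is left with replicates 1–3 only. Without the label set term, the 4 called for 65–79*PE against PBS became 1 and the 1 called between the peptides became 0. With library totals, 1 was called in place of 0 for 65–79*SE against PBS with IFNγ in replicates 4–6, and 1 in place of 2 between the peptides in replicates 1–3. With Il-4, no low count filter gave 1 in place of 0 for 65–79*SE against PBS in replicates 1–3 and over all replicates, and between the peptides in replicates 4–6 and over all replicates, and DESeq2 gave 1 in the last of these. The causes were not tested, and the shares of all genes called under these alternatives are not given here.

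With each library left out in turn and IFNγ, members called ran from 5 to 5 in replicates 1–3, 0 to 1 in replicates 4–6 and 0 to 3 over all replicates for 65–79*SE against PBS, from 5 to 6, 3 to 3 and 3 to 4 for 65–79*PE, and from 1 to 2, 3 to 3 and 1 to 1 between the peptides. With Il-4 they ran from 0 to 2, 0 to 0 and 0 to 1 for 65–79*SE, from 0 to 1, 0 to 1 and 1 to 1 for 65–79*PE, and stayed at 0 between the peptides. Differences between sets ran from 13 to 15 and between series from 12 to 14.

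The labels number replicates alike in all groups. Correlations of same-numbered libraries were -0.126 to 0.125 with IFNγ and -0.11 to 0.395 with Il-4 (mean 0.0137 and 0.176). A library correlated best with its own number in 13 of 36 checks with IFNγ and in 27 of 36 with Il-4, a hint from the data and not from the design. Every same-numbered pair exceeded 0.1 only with Il-4, between the peptides in replicates 1–3 (0.143 to 0.389) and for PBS and 65–79*PE in replicates 4–6 (0.19 to 0.395), and there the replicate block changed no count of members called. Elsewhere the numbers were not taken as pairs. There the block ended the calls of Slc11a1 (1.04, adjusted p = 0.0879 by edgeR) and Slc40a1 (1.53, adjusted p = 0.0799) for 65–79*SE against PBS with IFNγ over all replicates. It gave 1 in place of 0 for 65–79*SE against PBS with Il-4 in replicates 1–3, which was Slc40a1 (-0.97, adjusted p = 0.0332). Same-numbered pairs of that comparison correlated at 0.099 to 0.264, so they missed the limit of 0.1 narrowly. The block moved no other count of members by over 1.5 times.

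Ferroportin with Il-4 had the lowest levels, at 2.12 to 13.98 CPM. With library totals, the median change of all genes was -0.106 for 65–79*SE against PBS with Il-4 in replicates 1–3 (-0.068 with TMM).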
